A study of Homo sapiens with 4 samples.

Results

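Protodioscin, a steroidal saponin of yam and fenugreek, was given to 5637 cells, an established line from a human urinary bladder carcinoma, at 70 µM for 6 h, and the mRNA of the treated culture was set against that of untreated 5637 cells. These are 2 of the 4 libraries of the series; the other two are untreated T24 cells and T24 cells given 60 µM for 6 h, T24 being another bladder carcinoma line. The sample titles give the doses in µM and the treatment protocol gives the same figures in mM, and the unit of the titles is used here. The labels describe the controls as untreated and name no vehicle. Both lines grew in RPMI medium with fetal bovine serum, and the labels name no engineered allele in either. Each group is 1 library, so no difference below has a replicate check or a test, and every value describes this pair of libraries.

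The values are FPKM, fragments scaled to transcript length and to library size, estimated for each gene by the authors. Of 60617 genes in the table, 12635 were at 1 FPKM or more in either library and were compared. A difference is treated minus untreated on the log2(FPKM + 1) scale, which understates the change of genes at low levels. In the text below a gene's pair of values gives untreated first and treated second, and the number in parentheses after it is the log2 difference. A gene is called higher or lower among the members of a list at a difference of 0.25 or more, and 2-fold at 1 or more.

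Saponins join a steroid skeleton to sugar chains, bind membrane sterols and can make cell membranes leaky. Cells answer loss of membrane lipid by raising sterol and phospholipid synthesis through membrane-bound transcription factors, and answer amino acid shortage, oxidants or unfolded proteins through ATF4, NRF2 and the unfolded protein response. The urothelium from which these lines come is layered: basal cells carry the factor TP63 and the keratins KRT5, KRT14 and KRT6, luminal cells carry PPARG, GATA3 and uroplakins, and squamous differentiation adds SPRR proteins and involucrin. The labelled cell type was checked against 12 urothelial markers, and 11 of them were compared in 5637. The keratin KRT5 was at 331 and 283 FPKM (-0.22), KRT19 at 1388 and 1125 FPKM (-0.30) and TP63 at 27.9 and 19.2 FPKM (-0.51), while the uroplakin UPK2 was not compared. Of 42 marker genes of leukocytes, fibroblasts, endothelium, blood cells and other tissues, 2 reached 1 FPKM, THY1 at 9.25 and 9.66 FPKM (0.06) and CD68 at 1.595 and 1.65 FPKM (0.03), and CD68 shares exons with a neighbour.

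The untreated and treated libraries had FPKM sums of 338385 and 348577, and 12331 and 12405 genes at 1 FPKM or more. Judged by what 1 read is worth, 0.0172 and 0.0204 FPKM on a transcript of 1 kb, the treated library was sequenced to 0.843 of the depth of the untreated one. Mitochondrial transcripts took 9.84% and 11.9% of the sums. The differences went with GC content: 9.99% of coding genes without shared exons at 55.7% to 74.5% GC, the highest of 4 equal classes, were lower, against 2.39% in the lowest class, at 30.2% to 41.4%. Across 5683 such genes the difference had a Pearson r of -0.19 and a Spearman rho of -0.18 with GC content, and these genes come from the same pair of libraries. The part of GC content, depth or mitochondrial share in the results below was not tested, and list medians of 0.1 or more in size that moved by over 1.5 times after subtracting the median of genes of like GC content are given with that value.

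Differences at 6 h were small for most genes. The median over all genes compared was 0.04, 97.9% of genes lay within 0.5 on the log2 scale, and 61.5% lay above 0. At 2-fold, 22 genes (0.174%) were higher and 27 (0.214%) were lower. Among the 6346 genes whose exons belong to no other gene on either strand, 4 (0.0630%) were 2-fold higher and 3 (0.0473%) were 2-fold lower. At 0.25, 1176 genes (9.31%) were higher and 809 (6.40%) were lower, and without shared exons 590 (9.30%) and 416 (6.56%). These shares are the background against which the counts of list members are read. The excess of higher genes at 0.25 depended on scaling: with both libraries brought to the same median ratio, 815 genes were higher and 1060 lower. Of 69 lists of pathways and families, 51 had a median between -0.1 and 0.1, 10 a median of -0.1 or lower and 8 a median of 0.1 or higher. With median-ratio scaling these were 50, 17 and 2, and after subtraction of the median of genes of like GC content 51, 16 and 2.

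**Figure D1:**
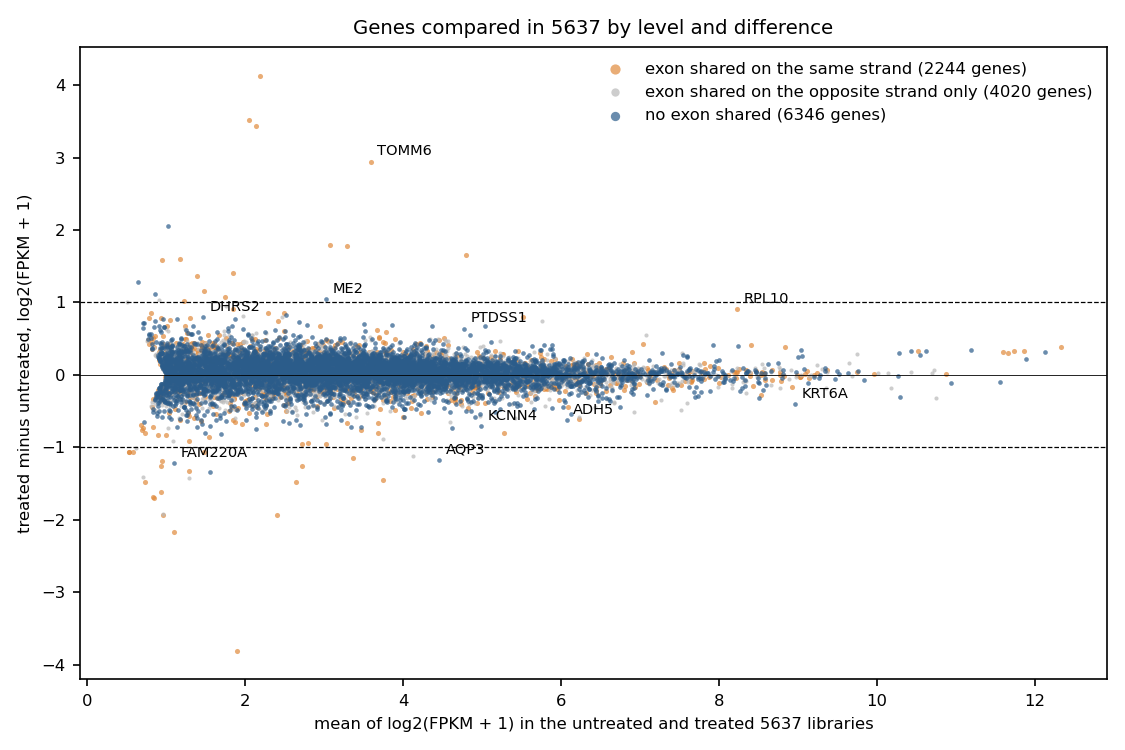
Each point is 1 of the genes compared in 5637; the horizontal axis is the mean of log2(FPKM + 1) over both libraries, the vertical axis is treated minus untreated, dashed lines mark 2-fold, and colour gives exon sharing (genes without annotation are not drawn). Most points lie within 0.5 of 0, and the points beyond 2-fold are mainly genes with same-strand exon sharing, while AQP3 and ME2 share none.

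The coding genes with the largest differences and no shared exon are named first. Lower in treated cells were AQP3, the calcium-activated potassium channel KCNN4, the squamous protein SPRR1B and the ligands WNT10A, ARTN and TNFSF15, and higher were the malic enzyme ME2, the histone H2BC4, the stress factor ATF3 and the glutaredoxin GLRX3. AQP3, the water and glycerol channel of epithelial cells (ENSG00000165272, chromosome 9, 33441154 to 33447633 on GRCh38), was at 32.02 and 13.7 FPKM (-1.17). ME2, the malic enzyme of mitochondria, which makes pyruvate and reducing equivalents from malate (ENSG00000082212, chromosome 18, 50878734 to 50954257 on GRCh38), was at 4.66 and 10.7 FPKM (1.05). FAM220A (ENSG00000178397, chromosome 7, 6329409 to 6348981 on GRCh38) was at 2.28 and 0.404 FPKM (-1.22). These 3 were the coding genes past 2-fold; the other 4 genes without shared exons past it were the T cell receptor segment TRBJ2-2 at 3.68 and 0.852 FPKM (-1.34), the microRNA gene MIR548AR at 0.233 and 1.69 FPKM (1.12) and 2 noncoding genes without a symbol, all short or listed at 0 in 1 library. By reads estimated from FPKM, transcript length and the worth of 1 read, counting error alone had an SD on the log2 ratio of 0.020 to 0.16 over the 20 coding genes with the largest higher values and of 0.022 to 0.54 over the 20 with the largest lower ones, the last being C1orf53. Just short of 2-fold were H2BC4 at a log2 difference of 0.82 and the neurotensin receptor NTSR1 at a log2 difference of -0.81.

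Some genes of ion and solute transport were on the lower side. KCNN4 (ENSG00000104783, chromosome 19, 43766533 to 43781261 on GRCh38), which lets potassium out of the cell when calcium rises, was at 39.7 and 23.9 FPKM (-0.71). LRRC8A, the core subunit of the volume-regulated anion channel, was at 74.3 and 61.97 FPKM (-0.26), and the bicarbonate carrier SLC4A7 was at 16.3 and 13.8 FPKM (-0.23). In the list of channels and transporters, 3 of 16 genes were lower and 0 higher, with a median of -0.06. The solute carriers as a family had a median near that of all genes. Of 196 genes with the stem SLC, 22 were higher and 6 lower, with a median of 0.06, beside 0.04 over all genes. Over all genes compared 9.31% were higher and 6.40% lower.

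GJB5, which encodes a gap junction protein of the beta group of connexins found in skin and other layered epithelia, was at 33.7 and 23.4 FPKM (-0.51).

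**Figure D2:**
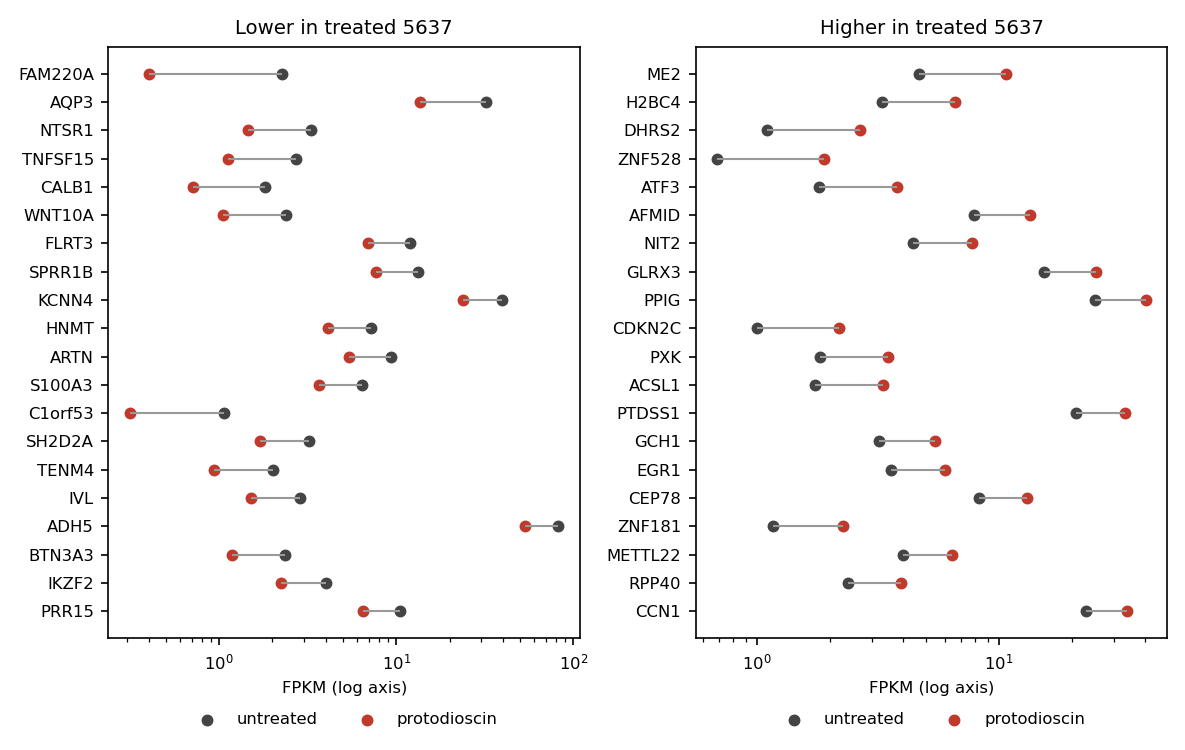
FPKM in the untreated (dark) and treated (red) 5637 library for the 20 coding genes without shared exons at each end of the differences, on log axes. Each line joins the 2 libraries of 1 gene; AQP3 goes from 32.02 to 13.7 FPKM and ME2 from 4.66 to 10.7 FPKM, whereas C1orf53 rests on about 36 and 9 reads.

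The basal and squamous programme stood lower in treated 5637 as a list: 9 of 15 genes compared were lower and 0 higher, the median was -0.34, and the background share of lower genes was 6.40%. SPRR1B, a small proline-rich protein cross-linked into the cornified envelope, was at 13.2 and 7.65 FPKM (-0.72). Involucrin (IVL), the scaffold of that envelope, is outside the list and was at 2.86 and 1.504 FPKM (-0.62). KRT16 and KRT6C, keratins of activated and squamous cells, were at 4.39 and 2.61 FPKM (-0.58) and 16.1 and 11.5 FPKM (-0.45) respectively. KRT6B was at 12.96 and 10.01 FPKM (-0.34), KRT14, the partner of KRT5 in basal cells, at 3.57 and 2.52 FPKM (-0.38), and the far more abundant KRT17 at 404 and 324 FPKM (-0.32). KRT6A, KRT6B and KRT6C are near-identical, and so are parts of KRT14, KRT16 and KRT17, so the division of reads within each of these groups is uncertain. DSG3, the desmosomal cadherin of basal cells, was at 4.92 and 3.204 FPKM (-0.49). These genes, from the scarce KRT14 to the abundant KRT17, were named for their lower values, so their common direction is no further result. Of the 15 list members compared, 14 lay below 0 and 1 above, at a log2 difference of 0.04. The hyaluronan receptor CD44 (-0.25) and the adhesion collagen COL17A1, which belongs to another list (-0.20), were closer to 0. In RNA from a whole culture, fewer cells with a transcript and less of it per cell cannot be told apart. The median GC content of the list was 55.8% against 48.2% over all genes compared, and the median of the list was -0.36 after subtraction of the median of genes of like GC content.

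Keratins outside the basal list went the same way, with 3 of 4 lower and a median of -0.40: KRT23 was at 7.68 and 5.1005 FPKM (-0.51) and KRT80 at 19.7 and 15.9 FPKM (-0.30), and KRT10 (-1.11) has exons in common with an opposite-strand gene, as KRT23 does, and a kit that does not mark strand leaves their reads mixed. The median was -0.13 without the filter on low values, because scarce keratins then enter. The simple keratins of all urothelial cells differed less: KRT7 was at a log2 difference of -0.18, KRT8 at a log2 difference of -0.17 and KRT18 at a log2 difference of -0.19.

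Luminal genes were lower too, at 4 of 13 with 0 higher and a median of -0.19. GRHL3, a grainyhead factor of the urothelial barrier, was at 3.21 and 2.14 FPKM (-0.42), the uroplakin family gene UPK3B at 5.605 and 3.92 FPKM (-0.42) and KRT19 at a log2 difference of -0.30. GATA3 stood on the other side, at a log2 difference of 0.22. Lower members were thus found in the basal and in the luminal list. Of the desmosome, 2 of 10 genes were lower and 0 higher (median -0.16), DSG3 and the plaque protein plakophilin 1 (PKP1) at 24.6 and 19.1 FPKM (-0.34). The median GC content of this list, 44.5%, lay under that of all genes. Plakoglobin (JUP), which links desmosomal cadherins to the plaque, was at a log2 difference of -0.18. Tight and adherens junction genes had 2 of 17 lower and 0 higher, with a median of -0.05.

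GPI-anchored proteins of the LY6 family, small surface proteins some of which mark squamous carcinoma, had 4 of 8 lower, 0 higher and a median of -0.19. LYPD3 was at 36.9 and 25.1 FPKM (-0.54) and LY6K at 38.5 and 30.8 FPKM (-0.31). LYPD6B was at a log2 difference of -0.25, whereas LYPD6 was at a log2 difference of 0.24. LYPD1 and LY6K share exons on the opposite strand. In T24 the same list had a median of -0.21.

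**Figure D3:**
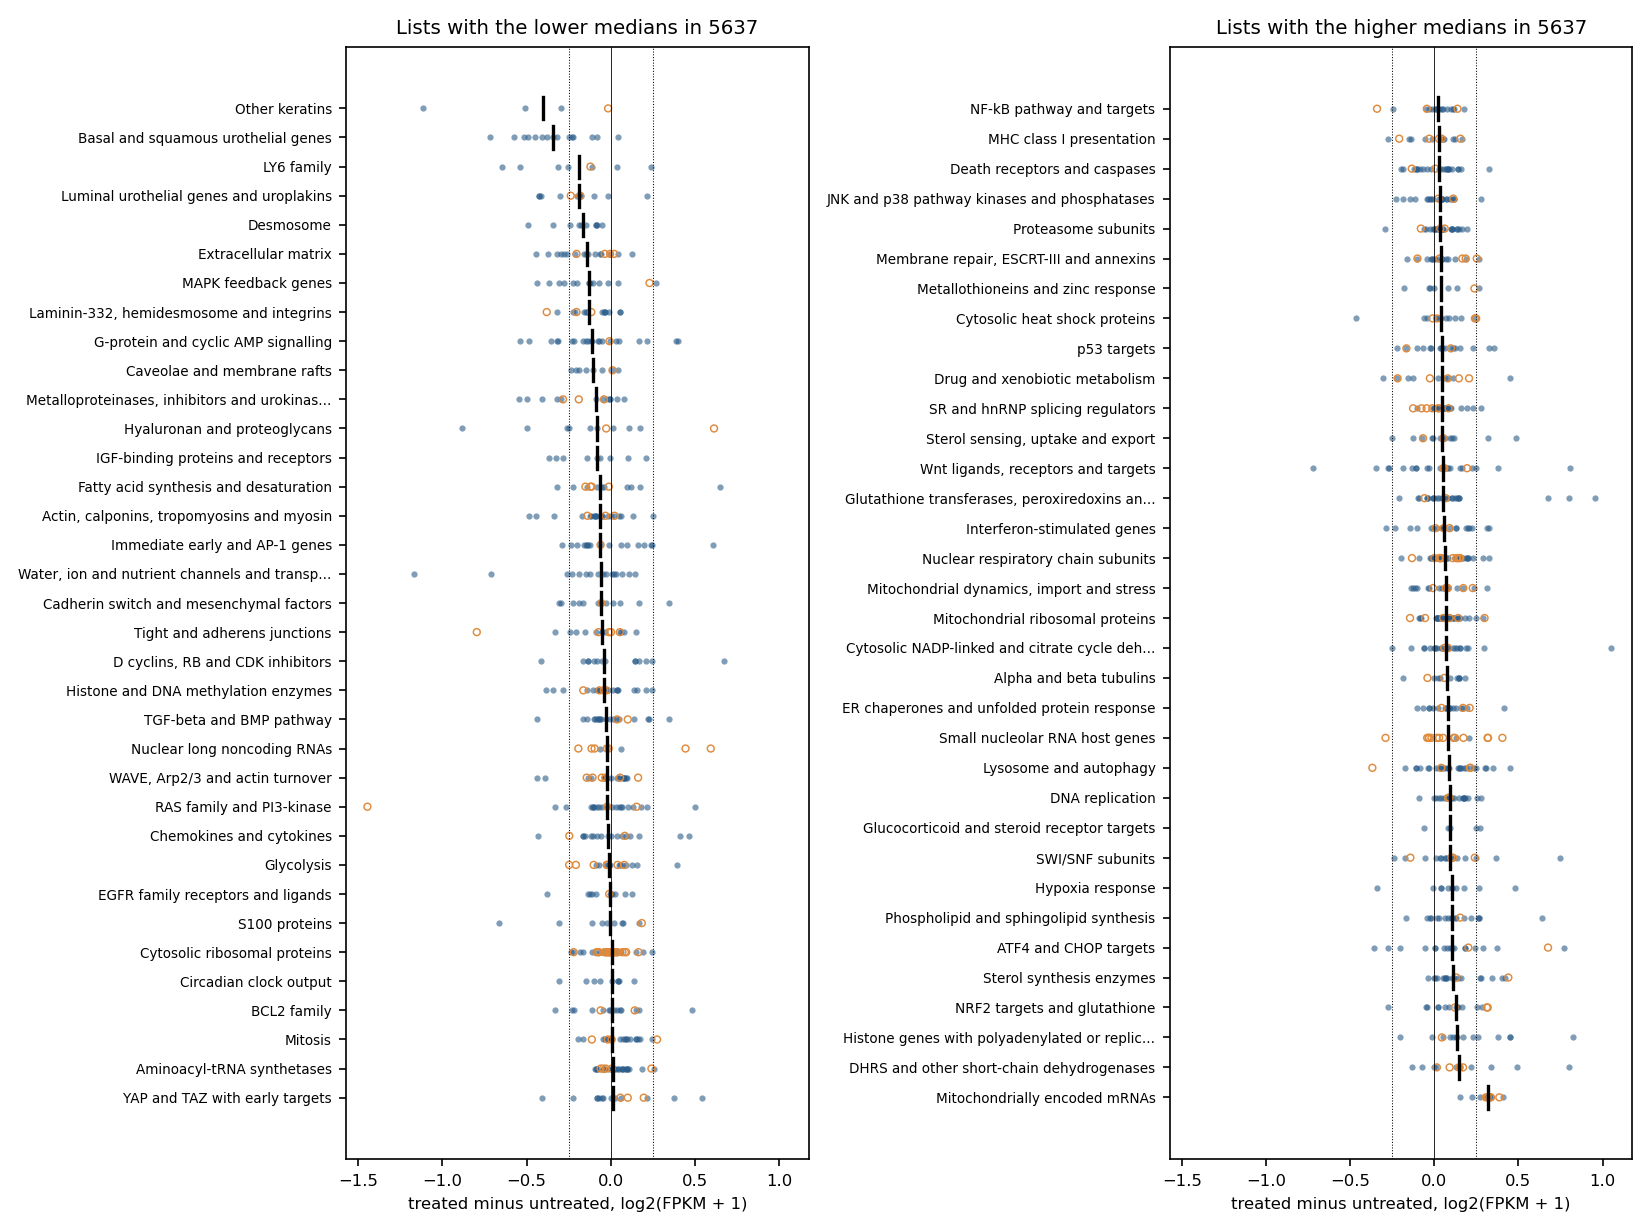
Treated minus untreated differences of list members compared in 5637, 1 row a list and 1 point a gene, on the log2(FPKM + 1) scale; black bars are medians, dotted lines mark 0.25 in each direction and open orange points share exons on the same strand. The basal list (median -0.34) and the mitochondrially encoded mRNAs (median 0.32) lie on opposite sides, with cytosolic ribosomal proteins at 0.00.

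Of 20 genes of the extracellular matrix 6 were lower and 0 higher, beside 6.40% of all genes, and the median was -0.14. LOX, which cross-links collagen and elastin, was at 9.44 and 6.69 FPKM (-0.44). The matricellular protein tenascin C (TNC) was at 115 and 88.6 FPKM (-0.37) and the basement membrane proteoglycan perlecan (HSPG2) at 14.1 and 11.1 FPKM (-0.32). The fibrillar and fibril-associated collagens COL5A2 and COL12A1 were at log2 differences of -0.26 and -0.28. LOX, TNC and HSPG2 share exons on the opposite strand, and COL5A2 and COL12A1 share none.

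Among metalloproteinases, their inhibitors and the urokinase system, 6 of 15 were lower and 0 higher, with a median of -0.09, or -0.19 over the members without shared exons. TIMP3, the inhibitor bound to matrix, was at 83.1 and 56.7 FPKM (-0.54), and the stromelysin MMP10 at 32.1 and 22.5 FPKM (-0.50). SERPINB2, an inhibitor of plasminogen activators, was at 406 and 333 FPKM (-0.28) and tissue plasminogen activator (PLAT) at 50.01 and 40.6 FPKM (-0.30). Protease and inhibitor genes therefore stood lower side by side. Of hyaluronan and proteoglycan genes 3 of 11 were lower and 1 higher; the synthase HAS3 was at 15.9 and 10.99 FPKM (-0.50), beside HAS2 at a log2 difference of -0.89, and the hyaluronidase HYAL2 was at 9.28 and 14.7 FPKM (0.61), with shared exons in each of the 3. IGF-binding proteins had 3 of 9 lower and 0 higher (median -0.08): IGFBP3 was at 22.9 and 17.5 FPKM (-0.37) and IGFBP6 at 30.4 and 24.1 FPKM (-0.32).

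The laminin-332 receptor system, which anchors basal cells, had 2 of 16 lower and 0 higher and a median of -0.13. They were integrin beta 6 (ITGB6), a receptor that activates TGF-beta, at 10.3 and 7.69 FPKM (-0.38), and dystonin (DST), the hemidesmosome plakin, at 12.6 and 9.88 FPKM (-0.32). The median was -0.05 without members that have same-strand exon sharing.

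Genes of secreted ligands lay on both sides of 0; those named here were picked with their values known. On the lower side, WNT10A was at 2.38 and 1.05 FPKM (-0.72), the neurotrophic ligand artemin (ARTN) at 9.34 and 5.44 FPKM (-0.68) and the TNF family ligand TNFSF15 at 2.72 and 1.13 FPKM (-0.81). Among abundant ligands, WNT7A was at 148 and 122 FPKM (-0.27), WNT5A at 18.8 and 14.5 FPKM (-0.35) and the guidance cue SEMA3A at 43.1 and 30.97 FPKM (-0.47). In the Wnt list 4 of 24 were lower and 2 higher, with a median of 0.05 that was -0.11 at a minimum of 5 FPKM; the higher ones were the receptor FZD6 at 11.2 and 14.9 FPKM (0.38) and PYGO1 (0.81), a nuclear cofactor. The bone morphogenetic protein BMP4 was at 9.52 and 6.76 FPKM (-0.44) and the EGF family ligand neuregulin 1 (NRG1) at 10.3 and 7.69 FPKM (-0.38). On the higher side, interleukin 11 was at 14.2 and 19.3 FPKM (0.41) and the chemokine CCL20 at 1.48 and 2.43 FPKM (0.47). The interleukin 1 receptor antagonist IL1RN was at 17.4 and 12.6 FPKM (-0.43), so that of 19 chemokine and cytokine genes 1 was lower and 2 were higher.

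Feedback genes of the MAPK pathway, which ERK activity induces and whose products limit it, had 4 of 15 lower and 1 higher, with a median of -0.13. SPRY1 was at 3.93 and 2.65 FPKM (-0.44), the cytoplasmic ERK phosphatase DUSP7 at 25.5 and 19.6 FPKM (-0.37), and the nuclear phosphatase DUSP4 was at a log2 difference of -0.31. DUSP1, a phosphatase induced by stress, was the higher one at 4.19 and 5.26 FPKM (0.27). Of 23 genes of G-protein and cyclic AMP signalling, 5 were lower and 2 higher (median -0.11). The nucleotide receptor P2RY2 was at 10.996 and 7.24 FPKM (-0.54), the prostaglandin receptor PTGER4 at 4.22 and 3.07 FPKM (-0.36) and the endothelin receptor EDNRA at 5.64 and 4.32 FPKM (-0.32). RGS2, which turns off Gq signalling, was at 3.42 and 4.78 FPKM (0.39) and the ATP-gated channel P2RX4 at 3.32 and 4.69 FPKM (0.40), both higher. The small GTPase RHOB was at 48.6 and 36.8 FPKM (-0.39) and RAP1A, a GTPase of cell adhesion, at 9.28 and 13.5 FPKM (0.50), on opposite sides.

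Further genes that belong to none of these groups add to the lower side. ADH5, the glutathione-dependent formaldehyde dehydrogenase, was at 82.5 and 53.2 FPKM (-0.62). The lipid phosphatase PLPP2 was at 35.9 and 23.5 FPKM (-0.59), the cytidine deaminase APOBEC3G at 41.8 and 29.02 FPKM (-0.51) and the small heat shock protein HSPB1 at 58.6 and 42.2 FPKM (-0.46). HNMT, which inactivates histamine, was at 7.23 and 4.103 FPKM (-0.69), and the calcium-binding protein S100A3 at 6.399 and 3.68 FPKM (-0.66). HSPB1 was the 1 lower member of 15 cytosolic heat shock genes, whose median was 0.04.

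Single enzymes of redox and carbon metabolism were among the genes with the largest higher values, while most members of their lists stayed within 0.25. GLRX3, a glutaredoxin that carries iron-sulphur clusters, was at 15.3 and 25.1 FPKM (0.68), and in the list of glutathione transferases, peroxiredoxins and glutaredoxins 3 of 27 were higher and 0 lower; the other two, GLRX2 (0.80) and GSTM3 (0.96), share exons on the opposite strand. ME2 and cytosolic isocitrate dehydrogenase (IDH1, at 18.5 and 23.02 FPKM (0.30)) were the 2 higher members of 25 dehydrogenases of NADP and the citrate cycle, with 1 lower, and the median of 0.07 was near that of all genes. The kynurenine pathway enzyme AFMID was at 7.88 and 13.4 FPKM (0.70), the omega-amidase NIT2 at 4.42 and 7.77 FPKM (0.69) and GCH1, which starts tetrahydrobiopterin synthesis, at 3.19 and 5.46 FPKM (0.62). Among short-chain dehydrogenases, 3 of 15 were higher and 0 lower with a median of 0.15 (0.08 after subtraction by GC content): DHRS2 (0.80), DHRS11 at 5.88 and 8.68 FPKM (0.49) and DHRS13 at 5.28 and 6.93 FPKM (0.34).

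Targets of NRF2, the factor that answers oxidants, had 4 of 16 higher and 1 lower and a median of 0.13. Both subunits of glutamate-cysteine ligase, the limiting enzyme of glutathione synthesis, were among the higher: GCLC was at 6.15 and 7.91 FPKM (0.32) and GCLM at 2.89 and 3.62 FPKM (0.25). Glutathione reductase (GSR) was at 16.1 and 19.8 FPKM (0.28) and sulfiredoxin (SRXN1) at 18.2 and 22.9 FPKM (0.31). The exporter ABCC3 was the lower member at 8.24 and 6.62 FPKM (-0.28). With median-ratio scaling 2 were higher and 1 lower, with a median of 0.09, beside 0.0005 over all genes on that scale, and after subtraction by GC content the median was 0.08. The RNA of MT2A, the metal-binding metallothionein, was at 484 and 583 FPKM (0.27), the 1 higher member of 8 metallothionein and zinc genes.

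The integrated stress response was looked at through targets of ATF4 and CHOP, where 4 of 19 were higher and 2 lower, with a median of 0.11. With median-ratio scaling 3 were higher and 2 lower and the median was 0.06, and after subtraction by GC content it was 0.07. ATF3 was at 1.81 and 3.804 FPKM (0.77) and asparagine synthetase (ASNS), which shares exons on the same strand, at 5.11 and 8.76 FPKM (0.68). The mitochondrial folate enzyme MTHFD2 was at 19.9 and 25.97 FPKM (0.37) and PPP1R15A, which brings phosphatase to eIF2alpha, at 52.8 and 64.6 FPKM (0.29). The mTORC1 inhibitor DDIT4 and the factor CEBPB were the lower ones, at log2 differences of -0.36 and -0.27, and both share exons on the opposite strand, as MTHFD2 does. ATF4 itself was at 77.5 and 87.9 FPKM (0.18) and CHOP (DDIT3) at 2.37 and 2.87 FPKM (0.20), a scarce transcript that shares exons on the same strand. The promoters of 18 of the listed targets were matched by symbol to RefSeq (GRCh38.p14; 250 bases before to 50 after the start), and 4 of them (22.2%) hold the C/EBP-ATF response element TGATGNAA on either strand, against 3.67% of all 27305 promoters. Stretches of 3 of them, upstream of the start, are shown because ATF3 and ASNS are the 2 members with the largest differences and CHAC1, at 1.82 and 2.203 FPKM (0.19), holds the element in the other orientation. Sequences read 5′ to 3′ on the strand of the gene, with the element in capitals. A match describes the letters only. The list was made of ATF4 and CHOP targets, so the share with the element describes the list and not the treated cells.
ATF3, chr1:212565181-212565258, plus strand: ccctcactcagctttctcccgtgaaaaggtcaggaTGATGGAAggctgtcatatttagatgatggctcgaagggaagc
ASNS, chr7:97872434-97872511, minus strand: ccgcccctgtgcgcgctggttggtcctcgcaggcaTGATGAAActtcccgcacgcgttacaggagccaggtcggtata
CHAC1, chr15:40953227-40953304, plus strand: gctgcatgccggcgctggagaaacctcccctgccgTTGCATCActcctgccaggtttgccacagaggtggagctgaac

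Chaperones of the endoplasmic reticulum and genes of the unfolded protein response had 1 of 22 higher and 0 lower, with a median of 0.08. That member was MANF, a secreted protein released under stress of this compartment, at 46.8 and 62.7 FPKM (0.41). TUSC3, a subunit of the complex that attaches N-linked sugars, is outside the list and was at 16.05 and 22.8 FPKM (0.48).

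Sterol synthesis had 6 of 20 enzymes higher and 0 lower, with 18 of 20 above 0 and a median of 0.11. Of all genes 61.5% lay above 0, and of 25 DNA replication genes 23 did, so this count is not particular to sterol enzymes. SQLE, the squalene epoxidase, was at 15.6 and 19.99 FPKM (0.34). IDI1, which makes dimethylallyl diphosphate, was at 5.77 and 8.04 FPKM (0.42), and SC5D, which sets a late double bond of the sterol ring, at 4.55 and 6.34 FPKM (0.40). MSMO1 and HSD17B7, which remove methyl groups and reduce the ketone of the ring, were at 6.35 and 7.88 FPKM (0.27) and 2.702 and 3.49 FPKM (0.28). TM7SF2 shares exons on the same strand and IDI1 on the opposite one. In the separate list of sterol sensing, uptake and export, 2 of 15 were higher and 1 lower. Its median was 0.05, with 9 above 0 and 6 below. INSIG1, which retains the sterol-regulated factors in the endoplasmic reticulum, was among the higher at 5.26 and 6.804 FPKM (0.32). ABCA1, the cholesterol exporter, was the lower one at 3.66 and 2.92 FPKM (-0.25). The enzyme list had 4 higher and 0 lower with median-ratio scaling and a median of 0.07, its median after subtraction by GC content was 0.07, and its median in T24 was -0.09. A sterol response element, TCACNCCAC on either strand, was in 0 of 15 promoters of the enzymes and in 1.15% of all promoters, which says only that these letters are not in the windows.

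Phospholipid and sphingolipid synthesis had 4 of 19 higher, 0 lower and a median of 0.10. PTDSS1, which makes phosphatidylserine from phosphatidylcholine, was at 20.9 and 33.1 FPKM (0.64) and stood apart from the rest. SGMS2, a sphingomyelin synthase, was at 9.56 and 11.7 FPKM (0.26), CEPT1, which completes phosphatidylcholine and phosphatidylethanolamine, at 7.74 and 9.49 FPKM (0.26) and the acid sphingomyelinase SMPD1 at 13.7 and 16.6 FPKM (0.26). With median-ratio scaling PTDSS1 alone passed 0.25 and the median was 0.065, and after subtraction by GC content it was 0.05. Fatty acid synthesis and desaturation had 1 of 14 higher, the acyl-CoA synthetase ACSL1 at 1.74 and 3.31 FPKM (0.65), and 1 lower, the elongase ELOVL6 at 9.52 and 7.42 FPKM (-0.32). Membrane repair, ESCRT-III and annexin genes, which close holes in the plasma membrane, had 2 of 20 higher, 0 lower and a median of 0.04. Of 9 genes of caveolae and membrane rafts 0 were past 0.25, with CAV1 at a log2 difference of -0.24. Their median was -0.11, with 6 below 0 and 3 above, and 2 were lower with median-ratio scaling.

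In the lysosome and autophagy list 4 of 32 were higher and 1 lower, with a median of 0.08. The ATG8 family gene GABARAPL1 was at 4.09 and 5.95 FPKM (0.45) (shared exons on the opposite strand), the proton pump subunit ATP6V0D1 at 28.2 and 36.2 FPKM (0.35), the autophagy kinase ULK1 at 9.104 and 11.5 FPKM (0.31) and alpha-galactosidase (GLA) at 21.9 and 27.2 FPKM (0.30). Cathepsin D (CTSD) was the lower one at 165 and 127 FPKM (-0.37), within a locus of shared exons. The pump accessory protein ATP6AP1 was at 28.6 and 39.6 FPKM (0.46) and the lysosomal protease legumain (LGMN) at 23.1 and 30.3 FPKM (0.38), both outside the list. The element TCACGTGA, read by the lysosomal factors of the TFEB family, was in 5 of 26 promoters of the list (19.2%) and in 1.04% of all promoters; it equals its own reverse complement, so both strands match together. This share describes the genes listed and not the treated cells. Of those 5 genes ATP6V0D1 had the largest difference, and LAMP1, CTSA and GAA were at log2 differences of 0.04, 0.09 and -0.03. The stretch of ATP6V0D1 is shown with the AP-1 match (TGACTCA on either strand) of SPRR1B, a motif in 3 of 11 basal and squamous promoters (27.3%) and 4.92% of all promoters. Of the other two genes with this match, S100A2 was at a log2 difference of -0.11 and SPRR3, under 0.1 FPKM in both libraries, was not compared.
ATP6V0D1, chr16:67481175-67481252, minus strand: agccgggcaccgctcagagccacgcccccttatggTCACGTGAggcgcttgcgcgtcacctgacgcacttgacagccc
SPRR1B, chr1:153031027-153031103, plus strand: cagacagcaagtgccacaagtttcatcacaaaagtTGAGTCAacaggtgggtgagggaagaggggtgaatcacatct

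Histone genes whose transcripts can carry a poly(A) tail had 5 of 15 higher and 0 lower, with a median of 0.13 in 5637 (0.09 with median-ratio scaling) and 0.25 in T24. H2BC4 was at 3.301 and 6.601 FPKM (0.82), H2BC21 at 4.68 and 6.77 FPKM (0.45), H2AC6 at 4.24 and 6.14 FPKM (0.45) and H2BC5 at 11.6 and 15.3 FPKM (0.38). SLBP, which binds the stem-loop of histone mRNAs that lack a tail, was at 16.1 and 21.2 FPKM (0.38). Of enzymes that add or remove methyl groups on histones and DNA, 3 of 23 were lower and 0 higher, with a median of -0.04. The DNA methyltransferase DNMT3A was at 9.54 and 7.08 FPKM (-0.38), the histone demethylase KDM6B at 7.47 and 5.67 FPKM (-0.34) and the histone methyltransferase KMT2D at a log2 difference of -0.29. SWI/SNF subunits had 2 of 20 higher and 0 lower, SMARCB1 (0.75) and SMARCD3 (0.37), each with exons shared on the opposite strand.

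All 13 mRNAs of the mitochondrial genome were above 0, 11 of them by 0.25 or more, and their median was 0.32. MT-CO1, a catalytic subunit of cytochrome oxidase, was at 3999 and 4988 FPKM (0.32), MT-CYB at 1221 and 1542 FPKM (0.34) and MT-ND6, read from the other strand of that genome, at 209.6 and 279 FPKM (0.41). The lowest were MT-ND3 at a log2 difference of 0.15 and MT-CO2 at a log2 difference of 0.22. Quantile normalization, which forces the same distribution on both libraries, brought the median to 0.07 with 3 members past 0.25. Nuclear genes of the respiratory chain had 2 of 44 higher and 0 lower with a median of 0.07, and mitochondrial ribosomal proteins 2 of 40 and 0 with the same median. The nuclear noncoding RNAs MALAT1 and NEAT1 were at 14.9 and 20.6 FPKM (0.44) and 10.2 and 15.9 FPKM (0.59), and 3 of 16 snoRNA host genes were higher and 1 lower. The part of RNA quality in these values was not tested.

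In counts past 0.25, cell death and growth lists lay near the background. In the BCL2 family 1 of 16 was higher, the mitophagy receptor BNIP3L at 18.6 and 26.4 FPKM (0.48), and 1 lower, BOK at 1.399 and 0.904 FPKM (-0.33). Death receptors and caspases had 1 of 25 higher, the adaptor TRADD at 3.67 and 4.87 FPKM (0.33), and 0 lower. JNK and p38 kinases and phosphatases had 1 of 22 higher, GADD45B at 10.7 and 13.1 FPKM (0.27), and 0 lower. Targets of p53 had 2 of 19 higher and 0 lower, RRM2B at 2.04 and 2.895 FPKM (0.36) and ZMAT3 at 1.06 and 1.59 FPKM (0.33). Mitosis genes had 1 of 25 higher and DNA replication genes 2 of 25, with 0 lower in each. Of the DNA replication genes 23 lay above 0 and 2 below. Among D cyclins, RB proteins and CDK inhibitors, CDKN2C, which blocks CDK4 and CDK6, was at 1.003 and 2.19 FPKM (0.67) and CDKN1C at 5.46 and 3.85 FPKM (-0.42), 1 on each side of 14. The list of 55 cytosolic ribosomal proteins, which is not the full set, had 0 past 0.25 in either direction and a median of 0.00. By stem of symbol, which can take in other genes, RPL had 2 of 48 higher and 1 lower. RPS had 0 of 42 higher and 1 lower. The 31 proteasome subunits had 0 higher and 1 lower, PSMA4 at 96.6 and 78.6 FPKM (-0.29). For NF-kB pathway genes 0 of 19 were higher and 1 lower, and for interferon-stimulated genes 2 of 22 were higher, among them STAT2 at a log2 difference of 0.33, and 1 lower. The medians of these lists ran from -0.04 for the D cyclin list to 0.09 for DNA replication, beside 0.04 for all genes.

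YAP and TAZ genes had 2 of 16 higher and 1 lower and a median of 0.01, with 9 above 0 and 7 below. The median was -0.05 without members that have same-strand exon sharing. The 2 higher ones were the matricellular genes CCN1 at 22.8 and 33.7 FPKM (0.54) and CCN2 at 4.85 and 6.58 FPKM (0.37). In the immediate early list 1 of 18 was higher, EGR1 at 3.58 and 5.99 FPKM (0.61), and 1 lower, IER2 at a log2 difference of -0.29. FOS and JUN were at log2 differences of 0.24 and 0.20, while 11 of the 18 lay below 0 and 7 above. The median of the list was -0.06, or 0.06 without genes that share exons on either strand. Glucocorticoid and steroid receptor targets had 5 genes compared, 1 higher (DUSP1) and 0 lower, with FKBP5 at a log2 difference of 0.25.

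Differences at 2-fold lay mostly in genes with same-strand exon sharing, whose reads the authors' software divides by an estimate. Of 2244 such genes 1.47% were at 2-fold, 14 higher and 19 lower, against 0.174% of 4020 genes that share exons on the opposite strand only and 0.110% of 6346 that share none. TOMM6, a small subunit of the mitochondrial import pore, was at 3.35 and 32.5 FPKM (2.94). Others higher were the joined gene NDUFC2-KCTD14 at 3.52 and 14.6 FPKM (1.79) and SENP3-EIF4A1 at 4.29 and 17.2 FPKM (1.79), and lower were IFI30, a thiol reductase of lysosomes, at 9.39 and 1.72 FPKM (-1.93), INO80B-WBP1 at 2.24 and 0 FPKM (-1.70) and BLOC1S5-TXNDC5 at 2.21 and 0 FPKM (-1.68). The imprinted noncoding RNA H19, host of a microRNA, was at 8.21 and 3.73 FPKM (-0.96), and RPL10, of the large ribosomal subunit but not in the list above, at 218 and 410.4 FPKM (0.91). Genes tied by same-strand exon sharing were then summed into loci, and 1525 loci reached 1 FPKM. In 30 of them at least 1 gene was at 2-fold, 33 genes in all. The summed FPKM of 23 of the 30 loci lay within 0.25, and 2 loci were at 2-fold as sums. The first was TOMM6 with PRICKLE4 and a gene without a symbol, at 12.7 and 35.8 FPKM (1.43). The gene without a symbol was at 9.22 and 3.26 FPKM (-1.26), on the other side from TOMM6. With each gene of the locus weighted by its length the log2 ratio was -0.20. The second was MIR3142HG with MIR146A, at 1.78 and 0.178 FPKM (-1.24). The locus of SENP3, EIF4A1 and CD68 summed to 423 and 414 FPKM, and that of PIK3R2 and IFI30 to 30.7 and 21.9 FPKM (-0.47).

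**Figure D4:**
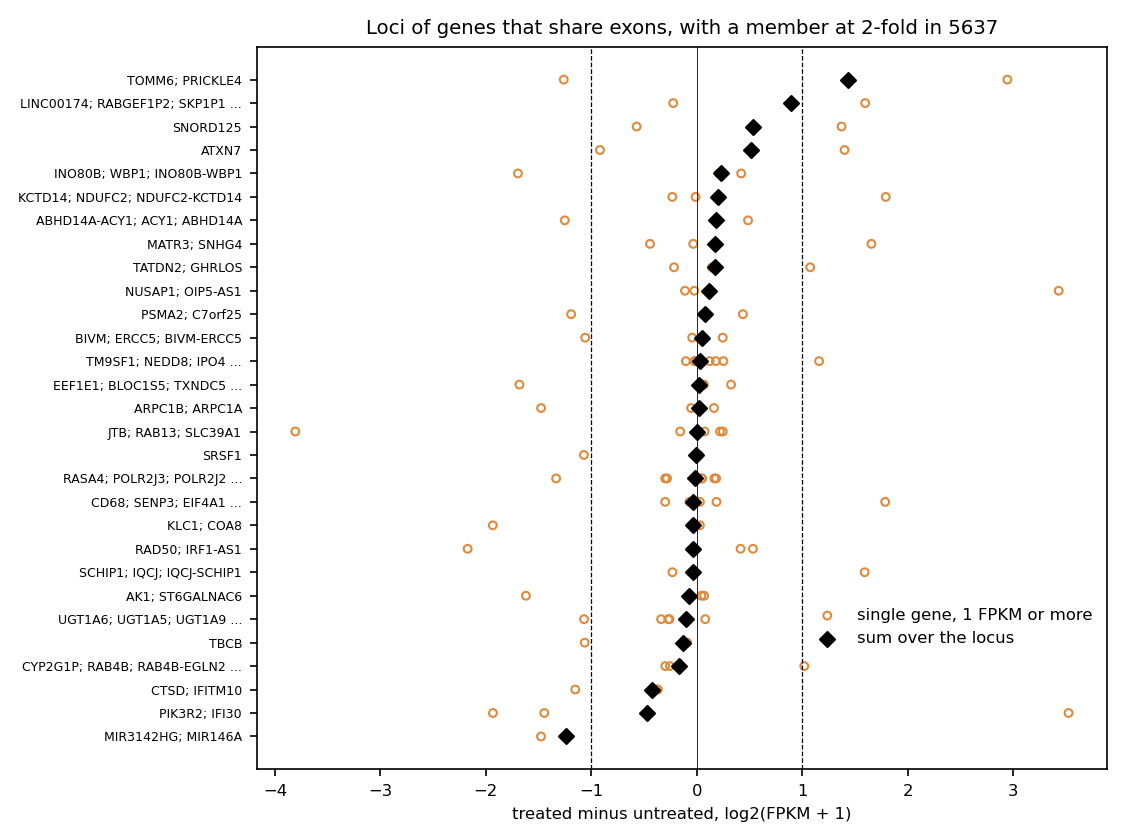
Loci of same-strand genes with shared exons that hold at least 1 gene at 2-fold, 1 row a locus; open points are single genes and black diamonds the summed FPKM of the locus, as treated minus untreated log2(FPKM + 1), with dashed lines at 2-fold. In 22 of the 29 rows drawn the diamond lies within 0.25 of 0 while single genes lie beyond 1.

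Sharing reaches some genes described above. BNIP3L, BOK, CCN2, CEPT1, CTSA, DHRS13, FZD6, IDH1, IER2, KMT2D, KRT7, KRT8, KRT18, PYGO1, SGMS2, THY1 and TRADD have exons that overlap an opposite-strand gene, and their values can include reads of that gene. GCLC, SRXN1, ITGB6, SERPINB2, MALAT1 and NEAT1 share exons on the same strand. AQP3, KCNN4, SPRR1B, TIMP3, MMP10, ATF3, SQLE, SC5D, PTDSS1 and ME2 share none.

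T24 cells, treated with a lower dose, give values beside these and share no library with 5637. There 12193 genes were compared. Across 5139 coding genes without shared exons compared in both lines, the differences had a Pearson r of 0.23 and a Spearman rho of 0.23. The 443 of them higher in 5637 had a median of 0.10 in T24 and the 210 lower in 5637 one of -0.07, beside 0.03 over all 5139. Of the 20 coding genes with the largest lower values, 14 were under 1 FPKM in both T24 libraries, and none of the 20 with the largest higher values was. The basal list had 6 genes compared in T24, with a median of -0.03, so much of it cannot be set side by side. AQP3 was at 0.807 and 0.881 FPKM (0.06) in T24, SPRR1B and KRT6C were listed at 0 there, and KCNN4 was at 1.74 and 1.18 FPKM (-0.33). ME2 was at 14.6 and 20.3 FPKM (0.45) and ATF3 at 6.81 and 10.01 FPKM (0.50). GLRX3 was at 20.8 and 14.1 FPKM (-0.53) and CCN1 at 209 and 132 FPKM (-0.66), on the other side of 0 from 5637. The mitochondrially encoded mRNAs had a median of -0.27 in T24 and 0.32 in 5637, and their part in the other differences between the lines was not tested. Differences between the lines were not tested, and line and dose cannot be told apart.

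**Figure D5:**
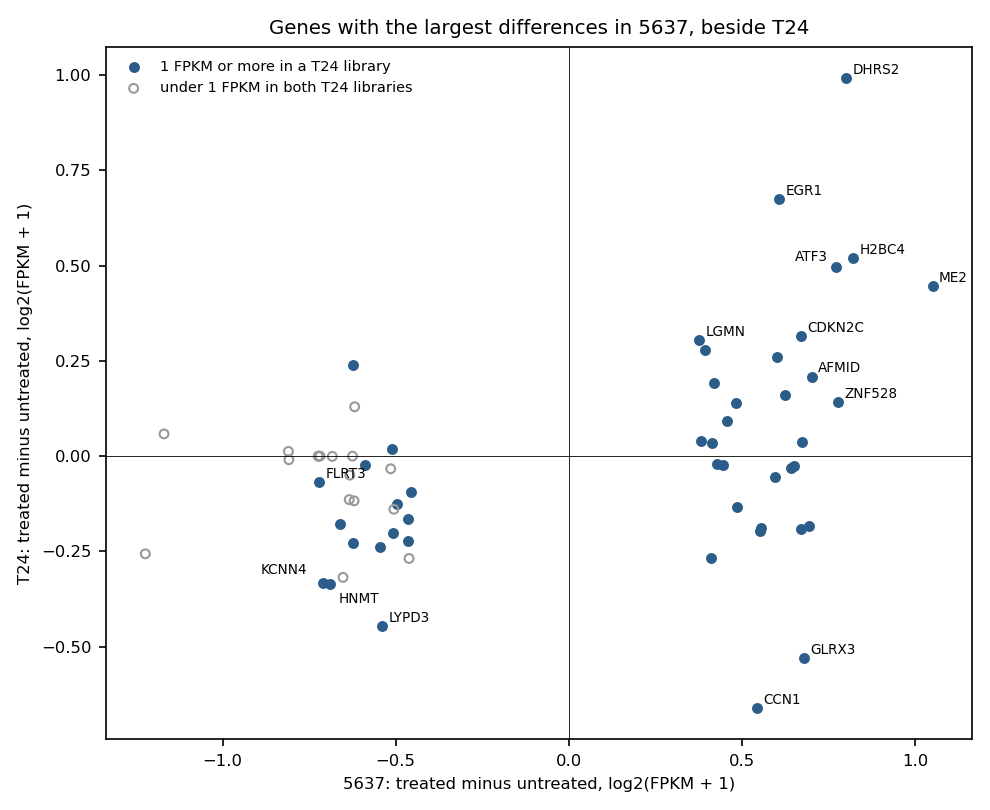
Treated minus untreated log2(FPKM + 1) in 5637 (horizontal) and T24 (vertical) for the coding genes without shared exons and with the largest differences in 5637, overall or among genes at 20 FPKM or more; open points are under 1 FPKM in both T24 libraries. ME2 lies at 1.05 in 5637 and 0.45 in T24, and GLRX3 (0.68 and -0.53) and CCN1 (0.54 and -0.66) lie on opposite sides of 0 in the lines.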

How the data were processed

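The authors deposited 1 table of FPKM per gene, fragments scaled to transcript length and library size, for all 4 libraries. Total RNA was made into Illumina TruSeq RNA v2 libraries and read as paired ends of 150 bases, per the labels' protocols. The submitters' processing notes name Trimmomatic, HISAT2, StringTie and GRCh38; which versions, settings and gene models were used is not given in the sources used here. The kit does not mark strand. The table holds no read totals.

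Differences are log2(FPKM + 1), treated minus untreated, over genes at 1 FPKM or more in either library (pandas 2.3.3, Python 3.11.15). GENCODE 29 and bedtools 2.31.1 gave types, coordinates, GC content and shared exons for 58542 of 60617 IDs; 42117 have a symbol. With 1 library per group no test was run. The text names the 20 coding genes without shared exons at the largest difference in each direction (some by count only), the 15 of them at 20 FPKM or more, up to 4 members past 0.25 in each list and members that fill a role, and the genes at the largest difference among those that share exons; further genes were picked with their values known. A few genes these rules name, and 1 locus in the plot of loci, are not reported here. The lists, 75 with 1425 genes, and the rules were chosen with earlier results of these data known. Alternatives varied the pseudocount, filter, scaling, gene classes and GC content.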

Additional observations from a re-analysis of the deposited data

Results flagged for a closer look

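The response of 3 named genes and 1 list pointed one way in 5637 and the other way in T24; the difference between the lines was not tested, each value comes from 1 pair of libraries, and the doses differed. GLRX3, a glutaredoxin that carries iron-sulphur clusters, had a log2 difference of 0.68 in 5637 and -0.53 in T24. CCN1, a matricellular protein, was at 0.54 in 5637 and -0.66 in T24. MT-ND6, a mitochondrially encoded subunit of complex I, was at 0.41 in 5637 and -0.27 in T24. The 13 mitochondrially encoded mRNAs had a median of 0.32 in 5637 and -0.27 in T24.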

How the results depend on the processing

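The counts at 2-fold followed the scale and the gene set. Against 22 genes higher and 27 lower (4 and 3 without shared exons), a pseudocount of 0.1 gave 62 and 59 (25 and 18), a pseudocount of 5 gave 7 and 3 (0 and 0), a minimum of 5 FPKM gave 9 and 8 (1 and 1), and TPM scaling, on which the pseudocount of 1 weighs less, gave 87 and 109 (41 and 35). Leaving out genes with same-strand exon sharing left 6 and 8, and with sharing on either strand 4 and 3. Protein-coding genes alone gave 13 higher, and 1 higher without shared exons. Median-ratio scaling, quantile normalization, scaling to nuclear genes and subtraction by GC content, the last chosen after seeing the data, kept each count within 1.5 times, as did no filter. No difference of a named gene or list median at or beyond its call size changed sign under these settings. For a single gene this was fixed in advance under most of them. A pseudocount cannot turn the sign of a difference, and filters and gene classes leave the value of a gene as it was. The median of all genes was 0.04, and 0.0005 with median-ratio scaling. Of 66 list medians, 5 moved by more than 0.1 without genes that share exons on either strand. The size of single-gene differences was less stable. Of 222 gene differences, 116 moved by 0.1 or more at a pseudocount of 5, 63 at a pseudocount of 0.1 and 52 with TPM scaling. No paired analysis was possible because each group has 1 library, and no library could be left out for the same reason. Depth limits short and scarce genes: 1 read is worth 0.0172 and 0.0204 FPKM on 1 kb, and 0.54 was the largest counting SD among the 20 coding genes without shared exons at the largest differences in each direction; genes at 0 in 1 library have larger ones.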

Other observations

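Genes were also grouped by the stem of their symbols, which gave 195 families of 8 or more genes compared in 5637; those named here were picked with their values known. The keratins (KRT) had the lowest median, -0.31 over 16 genes, with 10 lower by 0.25 or more and 0 higher, and a median of -0.12 in T24. SOX transcription factors had a median of -0.24 over 8 genes (3 lower, 0 higher), against -0.01 in T24. The semaphorins (SEMA), guidance ligands, had a median of -0.18 over 12 genes with 5 lower and 1 higher, and -0.01 in T24. Collagens (COL) had a median of -0.17 over 18 genes, with 3 lower and 0 higher, and -0.02 in T24.

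On the other side, the genes with the stem MAN, mannosidases and their relatives, had a median of 0.19 over 8 genes (2 higher, 0 lower). Frizzled receptors (FZD) had 0.18 over 8 genes (1 higher, 0 lower), with 0.06 in T24. Intraflagellar transport genes (IFT) had 0.15 over 15 genes (2 higher, 0 lower), with 0.10 in T24. Long intergenic noncoding RNAs without shared exons, 126 genes, were spread more widely than coding genes: 15.1% were higher and 20.6% lower by 0.25 or more, against 8.42% and 5.82% of 5687 coding genes, and most of these RNAs are scarce.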
